A study of Mus musculus with 15 samples.

Results

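The CDK inhibitors, G1 cyclins and Rb pathway are represented here by 10 genes, chosen by name: the inhibitors Cdkn2a, Cdkn2b, Cdkn2c, Cdkn1b and Cdkn1c, the cyclins Ccnd1, Ccne1 and Ccne2, the retinoblastoma gene Rb1 and the transcription factor gene E2f1. They are 10 of the 22531 genes named on the arrays, which carried 13 different probes for them among 55681 non-control probes, with a second probe each for Cdkn2a, Cdkn2b and Ccne1. RNA of 15 whole liver tumors was hybridised with 1 array per tumor. Of these, 5 were hepatocellular carcinomas (HCC) of p53f/f mice, which carry the floxed Trp53 alleles and served as controls, 5 were HCC of p53LKO mice, which lack Trp53 in the liver, and 5 were tumors of p53LKO mice that the labels call ICC, the usual abbreviation of intrahepatic cholangiocarcinoma. The mice were males of the C57/BL6J strain and all received carbon tetrachloride (CCl4), a hepatotoxin, at 0.5 µl/g intraperitoneally for 16 weeks from 6 weeks of age. The labels give 3 days between injections. The age of the tumor-bearing p53f/f mice and the promoter of the Cre transgene are not given in the sources used here. The paper reports that tumors formed later in p53f/f than in p53LKO mice, so age may go with genotype. Their parts in a difference between genotypes cannot be told apart here. Mouse 3717 gave 2 of the p53f/f tumors, so this group held 4 mice, and 4 p53LKO mice gave both an HCC and an ICC.

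Progression from G1 into S phase is controlled by the retinoblastoma protein, which binds E2F factors and holds their target genes silent. Cyclin D with CDK4 or CDK6, and then cyclin E with CDK2, phosphorylate the retinoblastoma protein and release E2F. Proteins of the Ink4 family block CDK4 and CDK6, those of the Cip/Kip family act mainly on cyclin E and CDK2, and hepatocytes re-enter this cycle after liver injury. The Cdkn2a locus also encodes p19Arf, which stabilises p53 by inhibiting Mdm2.

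Both Cdkn2a probes lie on chromosome 4 of mm9, from 88920405 to 88920464 and from 88920543 to 88920602, on the minus strand. The array files list both RefSeq transcripts of the gene for each of them, so the p16Ink4a and p19Arf messages cannot be told apart here. The neighbouring gene Cdkn2b, which encodes p15Ink4b, was measured from 88952276 to 88952335 and from 88952720 to 88952779 of the same chromosome. The 160 bases before the start sites of these 3 messages, from RefSeq on GRCm38.p6, are shown because the probes cannot tell which of the Cdkn2a starts was used and because Cdkn2a and Cdkn2b were low in the same p53f/f tumors. Capitals mark a match to an E2F motif.
Cdkn2a, upstream start (p19Arf), chr4:89294620-89294779, minus strand: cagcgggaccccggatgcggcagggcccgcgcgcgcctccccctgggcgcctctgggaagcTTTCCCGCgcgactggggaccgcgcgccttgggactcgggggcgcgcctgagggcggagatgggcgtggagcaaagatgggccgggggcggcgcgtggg
Cdkn2a, inner start (p16Ink4a), chr4:89282193-89282352, minus strand: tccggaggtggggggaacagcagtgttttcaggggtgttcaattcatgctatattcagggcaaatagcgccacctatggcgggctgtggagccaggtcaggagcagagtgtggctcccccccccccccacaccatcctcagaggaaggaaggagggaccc
Cdkn2b, chr4:89311033-89311192, minus strand: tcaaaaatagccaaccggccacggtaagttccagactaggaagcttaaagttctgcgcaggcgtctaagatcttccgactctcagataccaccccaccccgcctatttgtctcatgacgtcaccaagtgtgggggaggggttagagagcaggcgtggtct
The motif searched was any of TTTCCCGC, TTTCGCGC, TTTGCCGC and TTTGGCGC on both strands in the 250 bases before a start. It occurred in 1 of 8 windows that the reference lists for 6 of the members, 99 bases before the upstream Cdkn2a start, and in 1.86% of 32851 windows of all genes. The reference table used here has no window for Cdkn1c, Ccnd1, Ccne2 or Rb1.

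Levels are log2 of the background-subtracted intensity relative to the 75th percentile of the same array, so 0 is the level of a rather bright probe, and they are compared between groups for 1 probe, not between genes. A gene is given by the brighter of its probes unless stated. A probe is called detected on an array where the scanner software flagged it as well above background. It was tested if detected on 3 or more arrays in either of the groups compared, and it counted as changed at a Benjamini-Hochberg adjusted p under 0.05 from limma with a fold change over 2. Between 55.1% and 70.1% of all probes were well above background on the p53f/f HCC arrays, 37.0% to 62.1% on the p53LKO HCC arrays and 42.6% to 47.0% on the ICC arrays. The p53f/f HCC all lay in the upper row of a slide and the ICC all in the lower row. Fewer probes were well above background in the lower row. Row, genotype and tumor type therefore cannot be told apart in the comparison of ICC with p53f/f HCC. The only Trp53 probe, placed by the array files on chromosome 17 rather than at the gene, averaged -1.01 ± 0.28 (SD, n = 5) in p53f/f HCC, -3.09 ± 0.46 in p53LKO HCC and -3.07 ± 0.70 in ICC. Whether it lies in the deleted part of the gene was not tested. The labels ICC and HCC went with their markers: Krt7, Krt19, Epcam and Spp1 were higher and Alb, Apoa1, Ttr and Hnf4a lower in ICC than in p53LKO HCC, 4 of 6 cholangiocyte and 4 of 6 hepatocyte markers. Because whole tumors were measured, fewer cells of a type and less RNA per cell cannot be told apart.

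Cdkn2a was the member with the largest range of group means, lowest in p53f/f HCC and highest in ICC. In p53f/f HCC its level was -0.92 and -0.83 in mice 3715 and 3716, 1.94 in mouse 3681, and 2.31 and 2.83 in the tumors of mouse 3717. In p53LKO HCC it was 1.43, 1.63, 2.77, 3.04 and 3.22, and in ICC it was 3.26, 3.89, 3.91, 4.05 and 4.38. All 5 ICC lay above all 10 HCC, whereas the HCC groups overlapped. Cdkn2a rose 2.79-fold from p53LKO HCC to ICC (log2 fold change 1.48, standard error 0.37, limma adjusted p = 0.00900; exact permutation test, 2-sided, p = 0.00794, the smallest that 5 against 5 arrays allow). It was 7.13-fold higher in ICC than in p53f/f HCC (log2 fold change 2.83, standard error 0.72, limma adjusted p = 0.0123). With the slide as a block this last change was 1.93 with an adjusted p of 0.141, and the only p53f/f HCC on the slide of most ICC was a tumor of mouse 3717, the highest of its group. In the fit of ICC against p53LKO HCC over all 15 arrays the adjusted p was 0.0808. Between the HCC groups the change of 1.35 (95% interval -0.34 to 3.04) did not pass the test (limma adjusted p = 0.197).

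The dimmer Cdkn2a probe gave the same order. Its group means were -3.24, -1.27 and -0.01 in p53f/f HCC, p53LKO HCC and ICC, and it was called higher in ICC than in p53LKO HCC by 1.27 and than in p53f/f HCC by 3.24 (limma adjusted p = 0.0188 and 0.0117). In the p53f/f tumors of mice 3715 and 3716 it was not well above background, the tumors in which the brighter probe was also lowest, nor was it in the p53LKO HCC of mouse 5283.

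Cdkn2b showed no change between groups that passed the test, yet it varied more among p53f/f HCC than nearly all other probes. Its p53f/f levels were -1.03 in mouse 3715, -0.82 in mouse 3716, 3.11 in mouse 3681, and 3.67 and 2.96 in mouse 3717. In p53LKO HCC they were 1.41, 1.50, 2.02, 2.03 and 2.46, and in ICC 1.47, 1.96, 2.24, 2.53 and 2.58. The p53f/f tumors thus held both the lowest and the highest levels of all 15 tumors, with a gap of over 3 log2 units between mice 3715 and 3716 and the others. The same pair of tumors was lowest for Cdkn2a. The SD over the p53f/f arrays was 2.30 for Cdkn2b and 1.80 for Cdkn2a, larger than that of 99.7% and 99.4% of the 29287 probes detected on all 5 of these arrays. Over the p53LKO HCC the SD was 0.43 for Cdkn2b and 0.83 for Cdkn2a. The dimmer Cdkn2b probe was not well above background in mouse 3715 and was -3.02 in mouse 3716 against 0.08 to 0.92 in the other p53f/f tumors. Between groups the change of Cdkn2b was 0.31 (95% interval -1.68 to 2.29) for p53LKO against p53f/f HCC. It was 0.58 (-1.41 to 2.57) for ICC against p53f/f HCC. These wide intervals leave changes over 2-fold of either sign possible. For ICC against p53LKO HCC the change was 0.27 (-0.32 to 0.86), an interval within a 2-fold change either way.

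**Figure D1:**
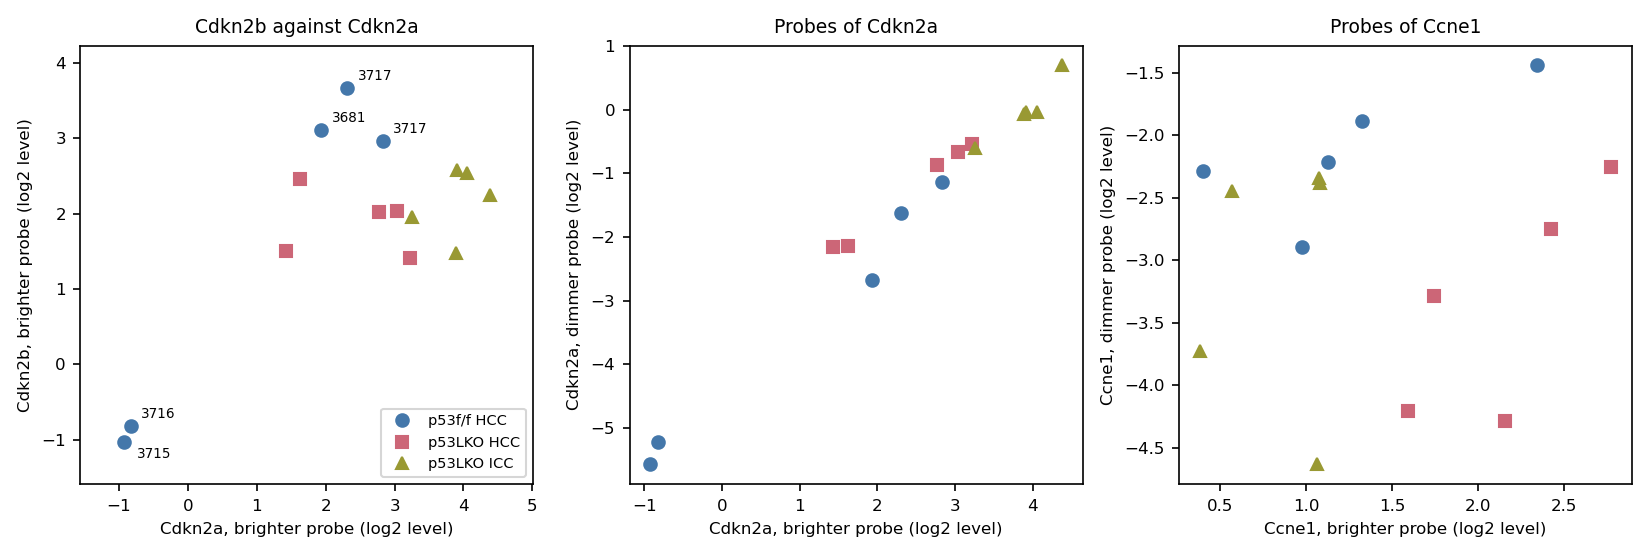
Each point is 1 tumor and both axes are log2 levels relative to the array's 75th percentile: Cdkn2b against Cdkn2a with the p53f/f mice numbered (left), the 2 probes of Cdkn2a (middle) and the 2 probes of Ccne1 (right). Mice 3715 and 3716 stand alone at low levels of Cdkn2a and Cdkn2b, the probes of Cdkn2a rise together, and those of Ccne1 rank the groups differently.

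Cdkn2c and Cdkn1b, which encode p18Ink4c and p27Kip1, had their lowest mean in p53f/f HCC and their highest in ICC, and differed only between these groups at an adjusted p under 0.05. Cdkn1b was 1.06, 1.49, 1.61, 1.63 and 1.78 in the p53f/f HCC, 1.63, 1.75, 2.01, 2.28 and 2.43 in p53LKO HCC, and 2.13, 2.32, 2.37, 2.43 and 2.51 in ICC. All ICC lay above all p53f/f HCC, and the difference of 0.84 (standard error 0.17, limma adjusted p = 0.00481) corresponds to 1.79-fold, under the 2-fold limit. In the same comparison Cdkn2c differed by 0.67 (standard error 0.24, limma adjusted p = 0.0484). Its levels were 0.31 to 1.54 in p53f/f HCC against 1.15 to 1.80 in ICC. When leaving out each array, its limma adjusted p ranged from 0.00938 to 0.105. Neither gene passed an adjusted p of 0.05 between the HCC groups or between ICC and p53LKO HCC. When ICC were compared only with the p53LKO HCC of the same slide row, the differences of Cdkn1b and Cdkn2c were -0.01 and -0.03.

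Cdkn1c, the imprinted gene of p57Kip2, showed no change that passed the test. It averaged -1.06 ± 0.46 (SD, n = 5) over the p53f/f HCC, -1.28 ± 1.15 in p53LKO HCC and -1.14 ± 0.62 in ICC. Within p53LKO HCC it ranged from -2.75 to -0.10, a spread larger than that of 98.1% of the probes detected on all of those arrays, while the 3 group means lay within 0.22 of each other.

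Ccnd1, the cyclin D1 gene, rose in both p53LKO tumor types. Its level was 2.35, 2.77, 3.57, 3.61 and 3.66 in the p53f/f HCC, 4.01, 4.23, 4.37, 4.54 and 4.94 in p53LKO HCC, and 4.72, 5.06, 5.40, 5.49 and 5.62 in ICC. Every p53LKO tumor exceeded every p53f/f tumor, while p53LKO HCC and ICC overlapped in 1 ICC, that of mouse 3977. The change was 2.34-fold between the HCC groups (log2 fold change 1.23, standard error 0.29, limma adjusted p = 0.00888) and 4.19-fold between ICC and p53f/f HCC (2.07, standard error 0.30, limma adjusted p = 0.000697). Between ICC and p53LKO HCC the difference of 0.84 had an adjusted p of 0.0131 but was 1.79-fold. It came to 1.10 (limma adjusted p = 0.0120), and so passed both thresholds, in the 4 mice that gave both tumors with the mouse as a block.

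Ccne1, the cyclin E1 gene, had the opposite course between the p53LKO tumor types. By the brighter probe its level was 0.40, 0.98, 1.13, 1.33 and 2.34 in the p53f/f HCC, 1.59, 1.74, 2.15, 2.42 and 2.78 in p53LKO HCC, and 0.38, 0.57, 1.06, 1.07 and 1.08 in ICC. All ICC lay below all p53LKO HCC, and Ccne1 was 2.47-fold lower in ICC (log2 fold change -1.30, standard error 0.26, limma adjusted p = 0.00247). The rise of 0.90 from p53f/f to p53LKO HCC did not pass (limma adjusted p = 0.0696). It passed, at 1.18 with an adjusted p of 0.0128, without the p53f/f tumor of mouse 3681, the highest of its group.

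The dimmer Ccne1 probe ranked the groups differently. It lies on chromosome 7 of mm9 at chr7:38885574-38885633, minus strand, at position 741 of the transcript, whereas the brighter probe lies at position 1874 from 38883026 to 38883084. Its letters are shown because the 2 probes disagree, and no part is in capitals.
Ccne1, dimmer probe: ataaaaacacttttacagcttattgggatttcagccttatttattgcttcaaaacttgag
Its mean was -2.14 in p53f/f HCC, -3.36 in p53LKO HCC and -3.11 in ICC. It was called lower in p53LKO than in p53f/f HCC (-1.21, limma adjusted p = 0.0443), where the brighter probe was higher, and it did not differ detectably between ICC and p53LKO HCC (0.25, limma adjusted p = 0.724). It was well above background on 5 of 5, 3 of 5 and 2 of 5 arrays of these groups, and both p53LKO HCC arrays below background lay in the lower row. The mean of both probes gave -0.53 for ICC against p53LKO HCC (limma adjusted p = 0.236), so the change of Ccne1 rests on the brighter probe.

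The probe of Ccne2, the cyclin E2 gene, was well above background on 0, 2 and 0 of 5 arrays of p53f/f HCC, p53LKO HCC and ICC. It was not tested, and no fold change is given.

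Rb1 was higher in ICC than in either HCC group. Its probe, spotted 10 times on each array, gave -0.62, -0.03, 0.03, 0.32 and 0.33 in the p53f/f HCC, -0.07, -0.06, 0.06, 0.11 and 0.12 in p53LKO HCC, and 0.55, 0.66, 0.86, 1.00 and 1.53 in ICC. All ICC lay above all HCC. The difference was 0.89 against p53LKO HCC (standard error 0.19, limma adjusted p = 0.00432) and 0.91 against p53f/f HCC (standard error 0.24, limma adjusted p = 0.0155), or 1.85-fold and 1.88-fold, under the 2-fold limit. Without the ICC of mouse 3977 the latter came to 1.01 and passed. With the slide as a block it had an adjusted p of 0.113. The HCC groups differed by 0.03 (95% interval -0.40 to 0.45), an interval within a 2-fold change either way, though the difference was 0.76 (limma adjusted p = 0.029) with spike-in scaling, which moved the median of all probes to 0.62. The p53LKO HCC spanned 0.19 log2 units. Their SD was smaller than that of all but 1.69% of the 20357 probes detected on all of these arrays. This rank is not like for like, as most probes average fewer than 10 spots.

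E2f1 was highest in p53LKO HCC. Its level was -0.65, -0.54, 0.17, 0.24 and 0.82 in the p53f/f HCC, 0.82, 1.05, 1.18, 1.26 and 1.32 in p53LKO HCC, and 0.30, 0.51, 0.77, 0.93 and 1.15 in ICC. The HCC groups did not overlap, although the p53f/f tumor of mouse 3716 and the p53LKO HCC of mouse 3731 were 0.82 each. E2f1 was 2.18-fold higher in p53LKO than in p53f/f HCC (log2 fold change 1.12, standard error 0.27, limma adjusted p = 0.00992). The lowest p53f/f levels were those of the tumors of mouse 3717, and without either of them, or with their mean as 1 value, the change fell to 0.96 to 0.99, just under 2-fold, with an adjusted p of 0.0227 to 0.0249. ICC differed from p53LKO HCC by -0.40 (limma adjusted p = 0.116) and from p53f/f HCC by 0.73 (limma adjusted p = 0.0782), and neither passed.

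**Figure D2:**
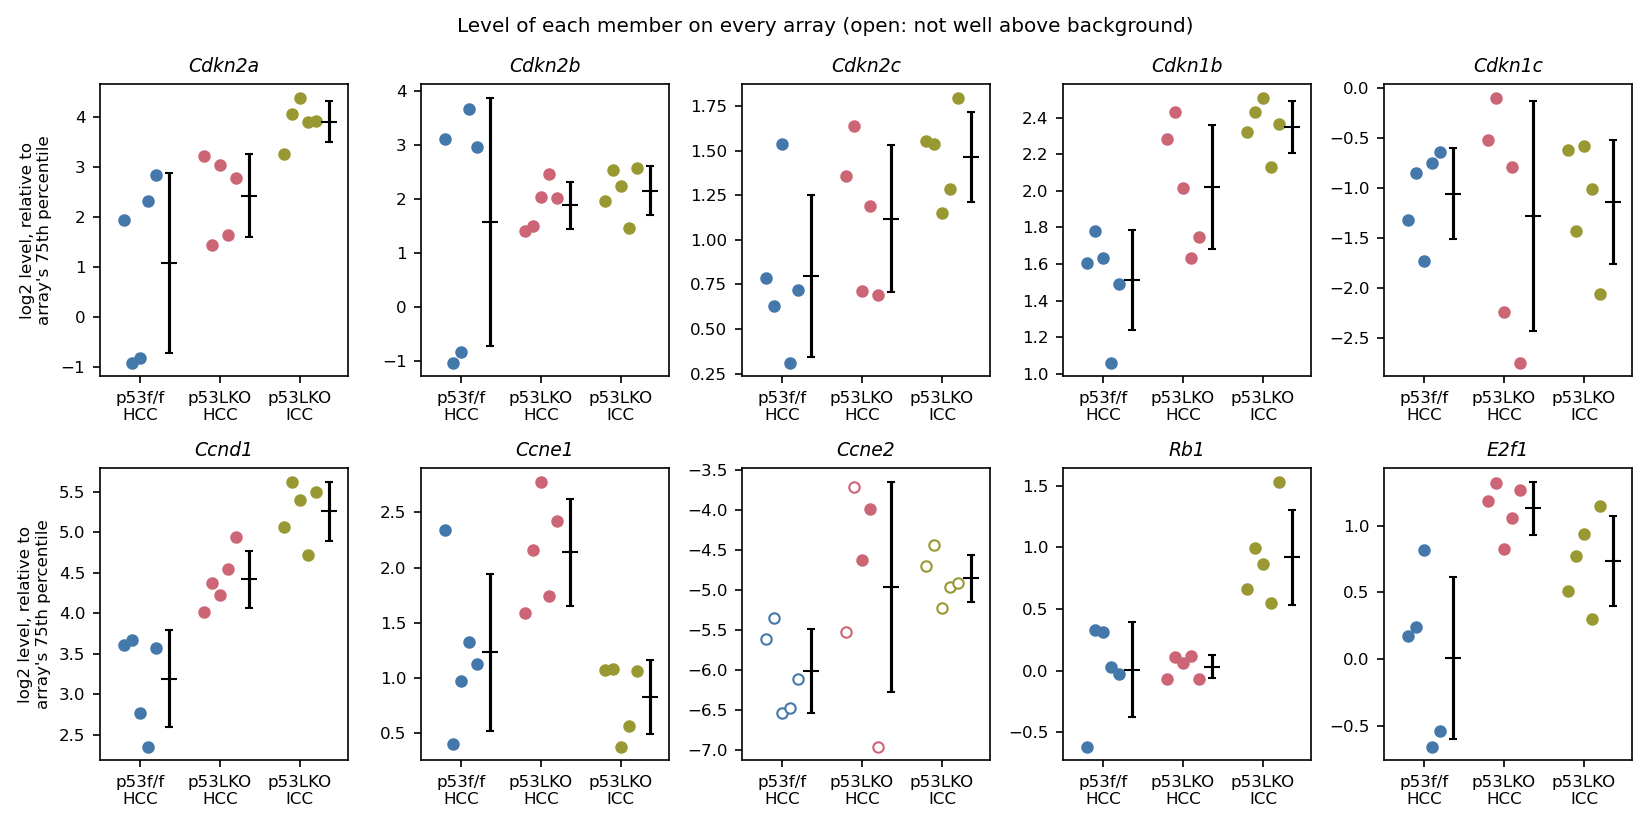
Log2 level of each of the 10 genes by its brighter probe, relative to the array's 75th percentile, for the 5 tumors of each group, with mean and SD as black bars and open points for arrays on which the probe was not well above background. ICC lie above all HCC for Cdkn2a and Rb1 and below all p53LKO HCC for Ccne1, and each vertical axis has its own scale.

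Among the 9 tested genes, 2 were called between the HCC groups, Ccnd1 and E2f1, both higher. Of all 36086 probes tested there, 19.6% were called, 3.64% higher and 16% lower. The groups did not overlap for 2 of the 9, against 22.5% of all probes. The share of genes called is thus near that of all probes, and the direction is the less common one. The median change of the 9 was 0.51, beside -0.12 over all probes, and 8 were higher. For ICC against p53LKO HCC, 2 of 9 were called, Cdkn2a higher and Ccne1 lower, where 26.4% of 32670 probes were called, 12.9% higher and 13.4% lower. Here 3 of 9 did not overlap, against 28.6% of probes, and the medians were 0.33 and -0.16. For ICC against p53f/f HCC, 2 of 9 were called, Cdkn2a and Ccnd1, both higher, beside 19.4% of 35703 probes, 7.43% higher and 12% lower. Of the 9, 4 did not overlap, against 24.2% of probes, and the medians were 0.73 and -0.31. The comparisons share arrays and are not independent of each other.

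The direction of a change depends on how arrays are scaled. Scaling to the 7 spike-in probes moved the median of all probes from -0.12 to 0.62 between the HCC groups and from -0.31 to 0.43 between ICC and p53f/f HCC, turned the 1312 higher and 5774 lower probes of the HCC comparison into 9813 and 2313, and raised the genes called to 6 of 9 in both. Taking the 75th percentile over probes detected everywhere moved the HCC median to -0.36, with 630 higher and 7941 lower probes, and under that scaling Ccnd1 and E2f1 were 0.98 and 0.88 higher (limma adjusted p = 0.0187 and 0.0203), under 2-fold. With quantile normalization the split was 1543 and 3720, E2f1 was called and Ccnd1 was 0.96 higher (limma adjusted p = 0.0276), under 2-fold. For ICC against p53LKO HCC the 75th percentile over probes detected everywhere changed 4225 higher and 4390 lower probes to 6241 and 2253, and it brought Ccne1 to -0.93, under 2-fold. The median over those probes gave 5136 and 3015. For ICC against p53f/f HCC 2652 higher and 4285 lower became 7331 and 930 with the spike-in probes and 3027 and 3213 with that 75th percentile. No called gene changed direction under any of these scalings.

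**Figure D3:**
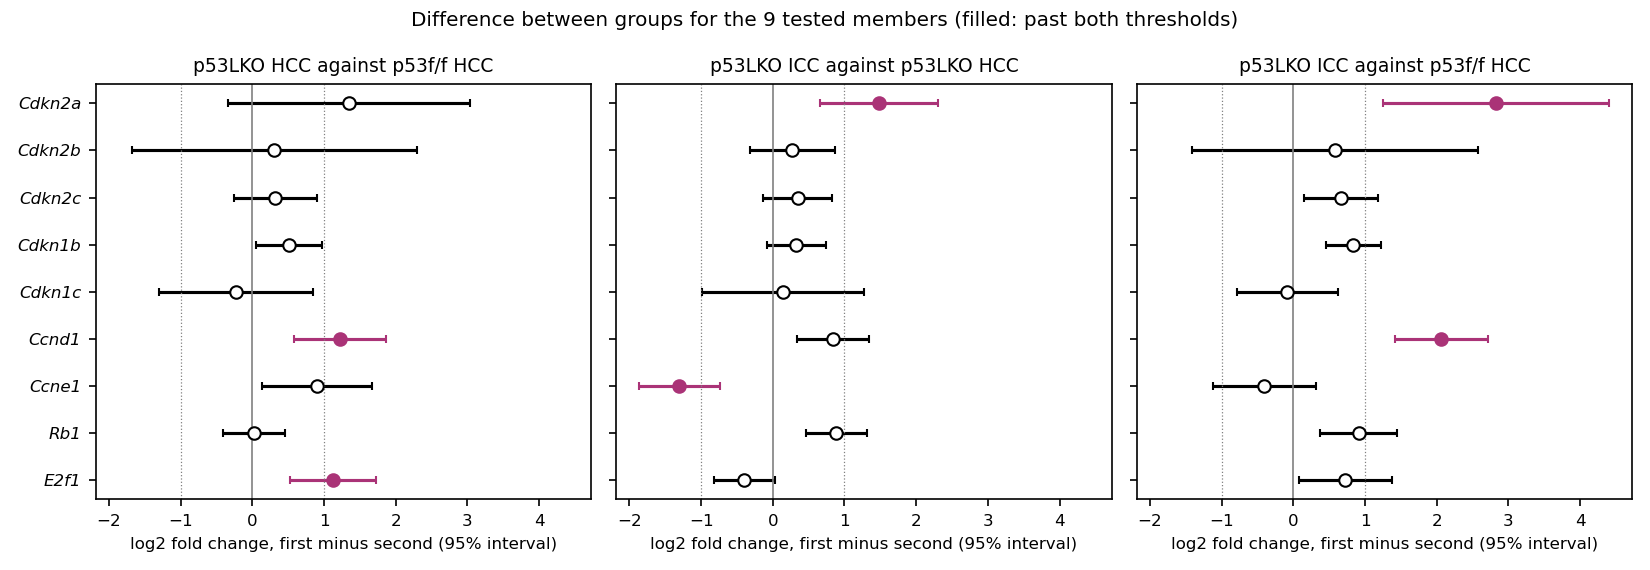
Log2 fold change with 95% interval from limma for the 9 tested genes in each comparison, filled where the adjusted p was under 0.05 and the fold change over 2 (dotted lines at 2-fold). The widest intervals are those of Cdkn2a and Cdkn2b against p53f/f HCC.

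In the 4 p53LKO mice that gave both tumors, the ICC exceeded the HCC of the same mouse in 4 of 4 for Cdkn2a, Ccnd1 and Rb1 and was lower in 4 of 4 for Ccne1 and E2f1. The difference ranged from 0.22 in mouse 3731 to 2.48 in mouse 5283 for Cdkn2a. It was 0.83 to 1.39 for Ccnd1, 0.60 to 1.42 for Rb1, -1.70 to -0.66 for Ccne1 and -0.31 to -0.17 for E2f1. With the mouse as a block, Cdkn2a, Ccnd1 and Ccne1 passed both thresholds, with 1.57, 1.10 and -1.17 (limma adjusted p = 0.0348, 0.0120 and 0.0159). Against the p53LKO HCC of the lower row alone, which the ICC also occupied, the same genes passed with 1.57, 1.07 and -1.04, though only 2 HCC remained.

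**Figure D4:**
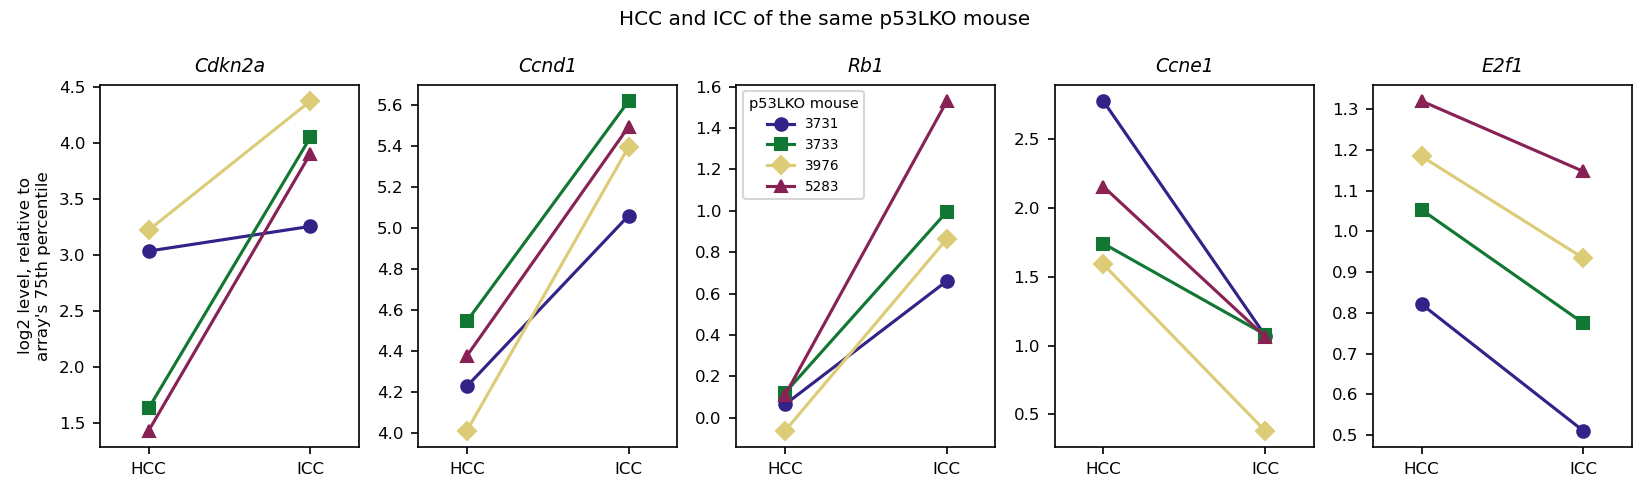
Log2 level in the HCC and the ICC of 4 p53LKO mice, 1 line per mouse, relative to the array's 75th percentile, with a separate vertical scale per gene. Lines rise for Cdkn2a, Ccnd1 and Rb1 and fall for Ccne1 and E2f1 in every mouse.

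The wider pathway was described by 74 further genes in 9 lists, of which 72 were tested. Between the HCC groups 11 were higher and 2 lower, between ICC and p53LKO HCC 4 higher and 7 lower, and between ICC and p53f/f HCC 9 higher and 4 lower. Together these are 13, 11 and 13 of 72, beside 19.6%, 26.4% and 19.4% of all probes called in the same comparisons. By direction, 3.64% of all probes were called higher and 16% lower between the HCC groups. The shares were 12.9% and 13.4% for ICC against p53LKO HCC, and 7.43% and 12% for ICC against p53f/f HCC. Cdkn1a, the p53 target that encodes p21Cip1, did not differ between the HCC groups beyond their spread, with 1.48 ± 0.64 (SD, n = 5) in p53LKO and 1.34 ± 0.51 in p53f/f HCC (difference 0.14, limma adjusted p = 0.782). In ICC it was -0.31 ± 0.52, 1.79 log2 units below p53LKO HCC and 1.65 below p53f/f HCC (limma adjusted p = 0.00203 and 0.00279), with all ICC below all HCC. Cdkn2d, the p19Ink4d gene, was higher by 0.68 in p53LKO HCC and by 0.89 in ICC than in p53f/f HCC (limma adjusted p = 0.0445 and 0.00590), both under 2-fold.

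Of the other cyclins of this phase, Ccnd2, the cyclin D2 gene, rose by 2.44 from p53f/f to p53LKO HCC (limma adjusted p = 0.0119). Its levels ranged from 0.18 to 4.29 in p53LKO HCC against -0.34 to 0.43 in p53f/f HCC, and it was 1.76 lower in ICC than in p53LKO HCC (limma adjusted p = 0.0410). Ccnd3 followed with 1.57 and -1.01 (limma adjusted p = 0.000726 and 0.0135), by a probe that the files place on chromosome 4 whereas RefSeq lists the gene on chromosome 17. Which locus this probe measures was not settled. Cdc25a, the phosphatase that activates CDK2, was 1.46 higher in p53LKO than in p53f/f HCC and 1.23 lower in ICC than in p53LKO HCC (limma adjusted p = 0.000959 and 0.000897).

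The kinase genes differed less. Cdk4 was 3.41 ± 0.17 (SD, n = 5) in p53f/f HCC, 3.57 ± 0.25 in p53LKO HCC and 4.13 ± 0.23 in ICC, and was 0.72 higher in ICC than in p53f/f HCC (limma adjusted p = 0.00819), under 2-fold. Cdk6 was well above background on 5, 3 and 0 of 5 arrays of these groups and no comparison passed. Rbl1, which encodes the pocket protein p107, differed by 0.43, 0.26 and 0.69 in the 3 comparisons without passing. Fbxo31, an F-box protein gene of cyclin D1 degradation, was 2.25 lower in p53LKO than in p53f/f HCC (limma adjusted p = 0.000402) and 1.77 higher in ICC than in p53LKO HCC (limma adjusted p = 0.0174). Fbxo4, another F-box gene of cyclin D1 turnover, was 1.11 lower in ICC than in p53LKO HCC (limma adjusted p = 0.000677).

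Among 11 regulators of the Ink4 and Arf locus and Arf partners, none was called between the HCC groups, beside 19.6% of all probes, and 2 were called higher in ICC in each of its comparisons, beside 12.9% of probes against p53LKO HCC and 7.43% against p53f/f HCC. Cbx7, a Polycomb gene whose product binds the Cdkn2a locus, was higher in ICC, as was Cdkn2a. It averaged -2.40 ± 0.72 (SD, n = 5) over the p53f/f HCC, -2.09 ± 0.47 in p53LKO HCC and -0.49 ± 0.44 in ICC, a rise of 1.60 over p53LKO HCC and of 1.91 over p53f/f HCC (limma adjusted p = 0.00117 and 0.00251). Id1, an inhibitor of helix-loop-helix factors, was 1.34 higher in ICC than in p53LKO HCC (limma adjusted p = 0.0199).

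Of 22 tested E2F target genes, 7 were higher and 1 lower in p53LKO than in p53f/f HCC, with a median of 0.82 beside -0.12 over all probes. Over all probes 3.64% were called higher and 16% lower. The probes of Mcm7, Mybl2, Pcna and Rrm2, which are counted among the 22, are placed by the files on another chromosome than RefSeq lists the gene. The higher genes included the replicative helicase genes Mcm6 (1.98), Mcm2 (1.53) and Mcm5 (1.36) and the licensing gene Cdt1 (1.35), with limma adjusted p of 0.00208, 0.00415, 0.00891 and 0.00716, while Mcm10 was lower. The count of higher targets ranged from 4 to 15 over the scalings of the arrays and was 6 without the 2 p53LKO HCC of the lower row. Between ICC and p53LKO HCC none was higher and 2 were lower, among them Rrm2, the ribonucleotide reductase subunit gene, by -1.78 (limma adjusted p = 0.00344). The 2 of 22 compare with 26.4% of all probes called there. The median there was -0.34. It changed sign, to 0.03, and the calls turned to 2 higher and 1 lower when the 75th percentile was taken over probes detected everywhere. Between ICC and p53f/f HCC 6 were higher, among them Uhrf1 (1.66), Mcm4 (1.32) and Mcm3 (1.18), and 3 lower, among them Mcm10 (-1.96), with limma adjusted p between 0.00148 and 0.00904 for these 4 genes, where 7.43% of all probes were called higher and 12% lower. Spike-in scaling turned these counts into 13 higher and 1 lower. Chek1, a checkpoint kinase gene also among the lower, was not well above background on any ICC array and was at least 1.13-fold lower there (limma adjusted p = 0.00742).

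Of 8 mitosis markers 0 passed limma's test in any of the 3 comparisons, and 0, 1 and 1 had an unadjusted p under 0.05. Of all probes 19.6%, 26.4% and 19.4% were called, and 15943 of 36086, 17327 of 32670 and 16096 of 35703 had an unadjusted p under 0.05. All 8 had higher means in p53LKO than in p53f/f HCC, with a median of 0.78. Scaling to the spike-in probes, 4 passed between the HCC groups, where 12126 of 36086 probes did, and 3 between ICC and p53f/f HCC, where 8261 of 35703 did.

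Markers of other cell types moved mainly with the comparisons that involve ICC. The summed level of 6 hepatocyte markers was 10.6 to 11.6 in p53f/f HCC, 10.3 to 10.9 in p53LKO HCC and 7.02 to 9.54 in ICC, on the log2 scale, and that of 6 cholangiocyte markers was 2.09 to 4.81, 2.33 to 3.36 and 6.07 to 7.17 in the same order. For 6 stellate cell and fibroblast markers it was 4.52 to 6.30, 5.49 to 6.99 and 7.96 to 8.73, and for 6 endothelial markers 4.59 to 5.35, 4.68 to 5.06 and 3.45 to 4.44. ICC thus lay apart from both HCC groups in these 4 sums, although no endothelial marker was called against p53LKO HCC and 3 of 6 had higher means in ICC, and narrowly in that of 6 acinar cell markers, with 1.99 to 2.42, 1.62 to 2.28 and -0.34 to 1.62.

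Against p53LKO HCC, 4 of 6 cholangiocyte, 3 of 6 stellate cell and 2 of 6 immune cell markers were called higher in ICC. The share of all probes was 12.9%. Called lower were 4 of 6 hepatocyte and 1 of 2 tested acinar cell markers, beside 13.4% of all probes. However, 2 of 6 stellate cell and 1 of 6 immune cell markers had lower means in ICC. Against p53f/f HCC, 4 of 6 cholangiocyte, 3 of 6 stellate cell and 2 of 6 immune cell markers were called higher in ICC. The share of all probes was 7.43%. Called lower were 4 of 6 hepatocyte, 2 of 6 endothelial and 2 of 4 tested acinar cell markers, beside 12% of all probes. Lower means in ICC were found there for 1 of 6 stellate cell and 2 of 6 immune cell markers. Between the HCC groups 0 of 6 hepatocyte, 0 of 4 tested cholangiocyte and 0 of 6 stellate cell markers were called, and 1 of 6 immune, 2 of 6 endothelial and 1 of 4 tested acinar cell markers were lower in p53LKO HCC, beside 16% of all probes. The summed immune level was 6.32 to 7.41 in p53f/f HCC, 5.54 to 5.86 in p53LKO HCC and 5.84 to 7.20 in ICC. Itgam, the myeloid integrin gene and the brightest of the list, was 6.67 in p53f/f against 4.59 in p53LKO HCC, whereas 3 of the 6 immune markers had higher means in p53LKO HCC, with a median change of 0.02, and Cd68, a macrophage marker, differed by 0.85 (limma adjusted p = 0.0768). The part of these markers in the changes of Cdkn2a, Ccnd1, Rb1, Ccne1 and E2f1 was not tested.

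**Figure D5:**
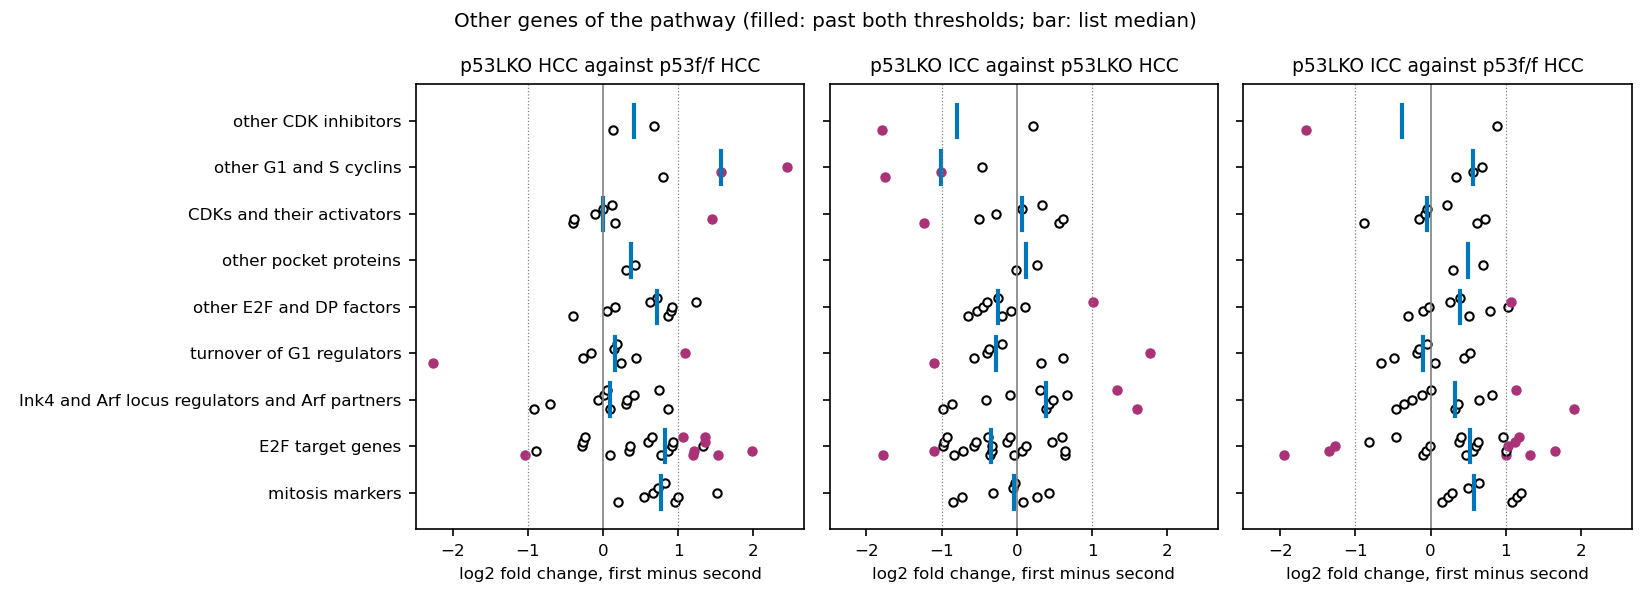
Log2 fold change of the 72 tested further genes of the pathway by list and comparison, filled where called, with the list median as a blue bar and dotted lines at 2-fold. E2F target genes lie mostly to the right of 0 in both comparisons with p53f/f HCC.

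For the 3 members with the widest range of group means, the genes with the most similar profile over the 15 arrays were sought among 16512, by the root mean square difference of levels centred on their mean. For Ccnd1 these were Mrtfa, Stk38l and Sult2b1, at 0.32 to 0.37 log2 units, where Ccnd1 itself had an SD of 0.97. For Ccne1, with an SD of 0.75, they were Golt1a, Abca17 and Igsf9, at 0.36 to 0.37. For Cdkn2a, with an SD of 1.61, the nearest were 5730416F02Rik, Ncs1 and Uck2, at 0.82 to 0.85. These differences are in absolute log2 units and grow with the spread of the member.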

How the data were processed

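RNA of 15 mouse liver tumors was measured on 1-colour Agilent SurePrint G3 arrays. Per the labels, the authors extracted the images with Agilent Feature Extraction 10.7.3.1, and the deposited scanner files hold an intensity per spot, the processed signal, after background subtraction. The RNA integrity number was above 8. The authors' deposited log2 table holds the log2 processed signal minus each array's 75th percentile, centred per probe on the median of the HCC arrays (lowest correlation with rebuilt values over the HCC arrays 0.999998, column medians -0.33 to 0.30), and served as an alternative for the HCC comparison. The arrays have no read depth. Their number and the signal over background limit the precision.

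The members and lists were chosen with earlier results of these data known. In R 4.3.3 with limma 3.58.1, log2 processed signals were averaged over the spots of a probe, flagged spots being left out, and shifted by the array's 75th percentile over non-control probes. Each comparison was fitted on its own 10 arrays across all probes tested, with Benjamini-Hochberg adjustment. Where single genes have an exact permutation test, it covers the 252 splits of 5 against 5. A separate culture or extraction is not stated beyond the mouse, so p-values measure the spread between tumors, 2 of which share a mouse in p53f/f HCC. Genes were named by rule: all 10 members, the pathway genes Cdkn1a, Cdkn2d, Ccnd2, Cdk4, Cdk6 and Rbl1, the 8 called pathway genes with the largest change per comparison, and the 3 genes of most similar profile for 3 members. Cell type markers are named as lists chosen as above, and of these Itgam, Cd68 and the called hepatocyte and cholangiocyte markers were picked after their values were seen. The values of 1 pathway gene are not reported here. Positions are those of mm9 as the array files give them, and sequences are from RefSeq on GRCm38.p6. HCC and ICC of 4 mice are paired by the mouse number, and after subtraction of group means the tumors of a mouse correlated at -0.14 to 0.07 (other pairs -0.26 to 0.28). The fit was tested on simulated data. Alternatives covered background correction, scaling, filters, thresholds, slide, row, mouse, other tests, the mean of probes and leaving out each array. The counts of E2F targets by scaling and row were added after seeing the data. Figures were drawn with matplotlib 3.10.9.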

Additional observations from a re-analysis of the deposited data

How the results depend on the processing

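Of the values of single members under the alternatives, 718 kept their direction and their side of the thresholds or moved within the spread, 24 came to pass, 13 no longer passed, 8 moved beyond the spread without a test and 38 changed sign, and no called value changed sign. The number of members called between the HCC groups, 2, became 1 with quantile normalization, 0 and 1 with the 75th percentile and the median of probes detected everywhere, 6 with spike-in scaling, and 1 with the mean of the tumors of mouse 3717, and was 1 to 3 when leaving out each array. Between ICC and p53LKO HCC, 2 became 4 with that median, 1 with all 15 arrays in 1 model, 4 with no fold limit, 1 with the mean of probes, and 3 with quantile normalization, with the 75th percentile of probes detected everywhere (3 higher and 0 lower), with the row as a block and in the lower row, and stayed 2 without any 1 array. Between ICC and p53f/f HCC, 2 became 6 with spike-in scaling, 1 with the slide as a block, 5 with no fold limit, 1 at an adjusted p under 0.01, 1 with the methods' t-test, and 3 with that 75th percentile and with no filter, and was 2 to 3 when leaving out each array. With no filter Ccne2 was called between ICC and p53f/f HCC, although its probe was not well above background on any of those arrays. With the mouse as a replicate block the count between ICC and p53LKO HCC was 3, through Ccnd1 at 1.10. No other call changed with the pairing. The cause of these changes was not tested.

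Changes of sign touched values that did not pass. Between the HCC groups Rb1 was -0.0272 with normexp, -0.22 and -0.16 with the 75th percentile and the median of probes detected everywhere, and -0.13 to 0.11 when leaving out each array. Cdkn1c was 0.51 with spike-in scaling, 0.0811 with the slide as a block, 0.85 within slide 1, and -0.52 to 0.14 when leaving out each array. Cdkn2b was -0.14 with the slide as a block, -0.79 within slide 2, and -0.34 to 0.83 when leaving out each array. Cdkn2a was -0.35 within slide 2, where 1 p53f/f HCC lay, and Ccne1 was -0.16 with the mean of probes. Between ICC and p53LKO HCC Cdkn1c was -0.83 with the row as a block and in the lower row, -0.31 within slide 1, -0.26 with the mouse as a replicate block, and -0.23 to 0.44 when leaving out each array. Cdkn2c and Cdkn1b were -0.0348 and -0.0061 with the row as a block and in the lower row, and Cdkn1b was -0.0377 within slide 1. Between ICC and p53f/f HCC Cdkn1c was 0.0956 with normexp, 0.0404 with the 75th percentile of probes detected everywhere, 0.66 with spike-in scaling, 0.55 within slide 1, 0.0079 with the mean of the tumors of mouse 3717, and -0.25 to 0.15 when leaving out each array. Ccne1 was 0.35 with spike-in scaling. Cdkn2b was -0.0118 with the slide as a block, -0.75 within slide 2, and -0.0712 to 1.10 when leaving out each array. Signal over background limits the dimmer Ccne1 probe and Ccne2.

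The number of probes called also moved. Against 7086 in the HCC comparison, normexp gave 2892, spike-in scaling 12126, no fold limit 11865 and the filter on every array of both groups 1850. Against 8615 between ICC and p53LKO HCC, normexp gave 5614, no fold limit 14764 and that filter 4333. Against 6937 between ICC and p53f/f HCC, normexp gave 3750, that filter 3757, the slide as a block 3701, no fold limit 12146 and no filter 19132.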
